A study of Mus musculus with 17 samples.

Results

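V(D)J recombination, the cutting and rejoining of antigen receptor gene segments that every T cell must complete in the thymus, was followed through the expression of 10 genes. These were the recombinase genes Rag1 and Rag2, the terminal transferase gene Dntt, and 7 genes of classical non-homologous end joining, namely Prkdc, Lig4, Dclre1c, Xrcc4, Xrcc5, Xrcc6 and Nhej1. The genes were taken by name for their place in this pathway, with earlier results of these data known, and each was represented by its brightest probe set (a group of probes against one transcript) among those annotated to a single gene. Of the 10 genes, 9 had such a probe set, out of 18193 genes measured in this way, and all 9 passed the filter on dim signals. Dclre1c, which encodes the nuclease Artemis, had none and was not analysed here.

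Thymi of 17 C57Bl/6 mice were profiled, with 1 array per mouse and the mouse as the replicate. The first group comprised 8 Tcf1-/- mice (ΔVII/ΔVII, both copies of the Tcf1 gene carrying the ΔVII mutation) with a thymic lymphoma, the second 4 Tcf1-/- mice (ΔVII/ΔVII) without a tumor, and the third 5 Tcf1+/- mice (wt/ΔVII), the controls, which carry 1 mutant copy. The allele is carried in the germ line, so that every cell type of these mice has it. RNA came from homogenized thymus by the labels and from homogenized thymocytes by the study's methods. Values are log2 signals, on which a difference of 1 is a doubling, and no age or sex is given in the labels.

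At double-negative (DN) and double-positive (DP) stages of thymocyte development, the Rag1 and Rag2 proteins together cut the DNA beside receptor gene segments. The Ku heterodimer, made of the Xrcc5 (Ku80) and Xrcc6 (Ku70) proteins, then binds the broken ends and recruits the DNA-dependent protein kinase encoded by Prkdc. Artemis opens the hairpin ends, terminal transferase adds nucleotides without a template, and ligase IV, the Lig4 product, seals the break with Xrcc4 and the stabilizing factor Nhej1 (XLF). Rag1, Rag2 and Dntt are largely restricted to lymphocyte precursors, whereas the end-joining genes serve in all cells.

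Rag1, Rag2 and Dntt were the members called lower than in controls (adjusted p under 0.05) in both Tcf1-/- groups, and their start regions are shown for that reason. Lig4, Xrcc4, Xrcc6 and Nhej1 also had lower means than controls in both groups, without a call. RefSeq sequences (GRCm38.p6) were at hand for 9 of the 10 members, with 2 start sites for Lig4 and none for Prkdc. Each run begins 250 bases before the annotated start of the gene and ends 50 bases after the start, and capitals mark E boxes (CANNTG, which reads alike on both strands), the motif bound by E proteins such as E2A and HEB.
Rag1, chr2:101649483-101649782, minus strand: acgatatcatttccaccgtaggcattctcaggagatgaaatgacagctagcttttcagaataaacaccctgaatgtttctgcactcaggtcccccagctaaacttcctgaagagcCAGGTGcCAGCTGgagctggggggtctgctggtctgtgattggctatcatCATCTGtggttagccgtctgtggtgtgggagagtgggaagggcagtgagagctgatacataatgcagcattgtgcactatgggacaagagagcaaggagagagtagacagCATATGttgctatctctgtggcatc
Rag2, chr2:101624462-101624761, plus strand: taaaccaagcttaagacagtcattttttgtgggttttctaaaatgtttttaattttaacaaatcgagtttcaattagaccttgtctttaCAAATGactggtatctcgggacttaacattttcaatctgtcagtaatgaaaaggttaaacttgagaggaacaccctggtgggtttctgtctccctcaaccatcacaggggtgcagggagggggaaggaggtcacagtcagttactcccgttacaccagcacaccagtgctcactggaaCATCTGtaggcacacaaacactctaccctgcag
Dntt, chr19:41029025-41029324, plus strand: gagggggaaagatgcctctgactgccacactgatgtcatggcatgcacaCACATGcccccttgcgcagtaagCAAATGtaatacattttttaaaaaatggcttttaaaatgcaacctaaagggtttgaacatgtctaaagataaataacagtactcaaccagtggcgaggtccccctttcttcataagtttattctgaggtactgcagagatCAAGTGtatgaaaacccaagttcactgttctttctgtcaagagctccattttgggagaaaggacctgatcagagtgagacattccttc
Rag1 and Rag2 lie close together on chromosome 2 and are read from opposite strands. The Rag1 window held 4 E boxes, the Rag2 window 2 and the Dntt window 3, and 72.3% of 32851 RefSeq start windows of 300 bases held at least 1. The core letters of TCF/LEF motifs (TCAAAG or ACAAAG, either strand) were found in none of the 3 windows and in 31.2% of all windows, and no match says only that these letters are not in these bases.

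Over the arrays as a whole, the interquartile range of log2 values was 2.92 to 3.06 on 4 arrays, those of lymphomas 1 and 2 and of controls 1 and 2, and 3.48 to 3.75 on the other 13. The same 4 arrays had the largest 3' minus 5' signal differences of the Gapdh control probe sets, a measure of RNA and labeling quality, at 2.63 and 2.33 in lymphomas 1 and 2 and 1.61 and 1.12 in controls 1 and 2, and the highest value of any other array was 0.96. For the Actb control probe sets, the difference was 2.385 and 2.265 in lymphomas 1 and 2 and 1.72 and 1.37 in controls 1 and 2. The 6 other lymphomas lay between 0.49 and 1.94, the Tcf1-/- thymi between 0.36 and 0.63 and the other 3 controls between 0.32 and 0.51. Lymphomas 4, 5, 6 and 8 were above control 2 on this measure. Lymphomas and controls therefore still differ on it without the 4 arrays. Results that rest on the 4 arrays are therefore also given without them. T-cell markers were present throughout, with Cd3d, a chain of the CD3 complex, at a mean of 13.65 in lymphomas, 12.88 in Tcf1-/- thymi and 13.66 in controls. Between groups, the 3 comparisons share arrays and are not independent of each other.

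Rag1, the catalytic subunit of the recombinase, was lower in both Tcf1-/- groups than in controls. Its log2 signal in the 8 lymphomas had a lowest value of 7.92, a median of 11.56 and a highest value of 13.74. In the 4 Tcf1-/- thymi without tumors it was 10.76, 11.19, 12.45 and 13.09, and in the 5 controls 13.76, 13.63, 14.08, 14.27 and 14.16. All 4 Tcf1-/- thymi and 7 of 8 lymphomas lay below the lowest control, with lymphoma 5 alone inside the control range. Compared with controls, Rag1 was 4.30-fold lower in Tcf1-/- thymi, a log2 fold change of -2.11 ± 0.42 (SE, limma adjusted p = 0.00764, exact permutation p = 0.00794, the smallest that 4 mice against 5 allow). In lymphomas the difference from controls was -2.82 ± 0.87 (SE, limma adjusted p = 0.0476, exact permutation p = 0.0124), or 7.07-fold lower. The spread differed between the groups, with SDs of 2.16 in lymphomas (n = 8), 1.08 in Tcf1-/- thymi (n = 4) and 0.27 in controls (n = 5).

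The lymphomas themselves differed in Rag1 by 56.5-fold between the lowest and the highest. Lymphomas 3 and 5 stood at 13.51 and 13.74, close to controls, and lymphomas 4, 6, 7 and 8 between 10.89 and 11.89. The Actb 3' minus 5' difference was 0.49 and 1.45 in lymphomas 3 and 5. In lymphomas 4, 6, 7 and 8 it was 1.44, 1.79, 0.90 and 1.94, and it was largest in lymphomas 1 and 2, at 2.385 and 2.265. The part of RNA quality in the spread of Rag1 was not tested. The lowest Rag1 values, 8.18 and 7.92, belonged to lymphomas 1 and 2, both among the 4 arrays of narrow range. The 2 controls on that set of arrays had 13.76 and 13.63, so that the difference between lymphomas and controls was -5.64 within those 4 arrays and -1.98 within the other 13 (6 lymphomas and 3 controls; limma adjusted p = 0.065). The call against controls was close to the threshold. It was lost when any 1 mouse other than lymphoma 3 or 5 was left out (adjusted p over all 13 such runs 0.019 to 0.101), and with the mouse number as a block, which pairs 5 lymphomas with the 5 controls, the difference was -2.93 ± 0.85 (SE, limma adjusted p = 0.0602). With the array set (the 4 arrays or the other 13) as a block it was -3.20 ± 0.64 (SE, limma adjusted p = 0.00292). Rag1 stayed lower in lymphomas than in controls in 29 of 29 alternative analyses, and lost its call in 17 of them. Alternatives that change only the filter, the variance model or the test keep the same difference of means and could not change its sign.

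Rag2, the partner that binds modified histones and allows Rag1 to cut, was lower in both Tcf1-/- groups as well. It had a lowest value of 6.30, a median of 8.44 and a highest value of 10.4 in lymphomas, stood at 7.46, 7.95, 9.39 and 9.86 in Tcf1-/- thymi, and at 9.82, 10.25, 11.22, 11.05 and 11.11 in controls. Here 6 of 8 lymphomas and 3 of 4 Tcf1-/- thymi were below the lowest control, and lymphomas 3 and 5 and Tcf1-/- mouse 4 overlapped the control range. Rag2 was 4.55-fold lower in lymphomas than in controls (-2.19 ± 0.59 SE, limma adjusted p = 0.0261, exact permutation p = 0.00932) and 4.06-fold lower in Tcf1-/- thymi than in controls (-2.02 ± 0.50 SE, limma adjusted p = 0.0208, exact permutation p = 0.0159). The lymphoma difference was -3.32 within the 4 arrays of narrow range and -2.03 ± 0.49 within the others (SE, limma adjusted p = 0.0313). The call in lymphomas was lost without control 3, 4 or 5, and that in Tcf1-/- thymi without Tcf1-/- mouse 2 or control 3, 4 or 5, at adjusted p values of up to 0.0691 and 0.072.

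Dntt, the terminal transferase that diversifies receptor junctions, was lower than in controls in both Tcf1-/- groups too. Its log2 signal in lymphomas had a lowest value of 12.4, a median of 13.41 and a highest value of 13.98. Tcf1-/- thymi had 11.77, 12.57, 13.31 and 13.4, and controls 14.42, 14.31, 13.85, 14.24 and 14.39. The Tcf1-/- thymi and the controls did not overlap, and 7 of 8 lymphomas lay below the lowest control, the exception being lymphoma 1. Dntt was 1.96-fold lower in lymphomas than in controls (-0.97 ± 0.24 SE, limma adjusted p = 0.0169, exact permutation p = 0.00389) and 2.78-fold lower in Tcf1-/- thymi than in controls (-1.48 ± 0.31 SE, limma adjusted p = 0.01, exact permutation p = 0.00794). Both calls held in every run that left out 1 mouse, and the lymphoma difference was -0.66 within the 4 arrays of narrow range and -1.03 within the others. The probe set's design code (_x_at) marks probes that can also bind other transcripts. Of the 2 other Dntt probe sets, 1 was also lower in lymphomas (-1.37) and in Tcf1-/- thymi (-1.69), with limma adjusted p values over all probe sets of 0.00601 and 0.0235, and the other gave -0.72 and -1.29 with adjusted p values of 0.194 and 0.237.

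**Figure D1:**
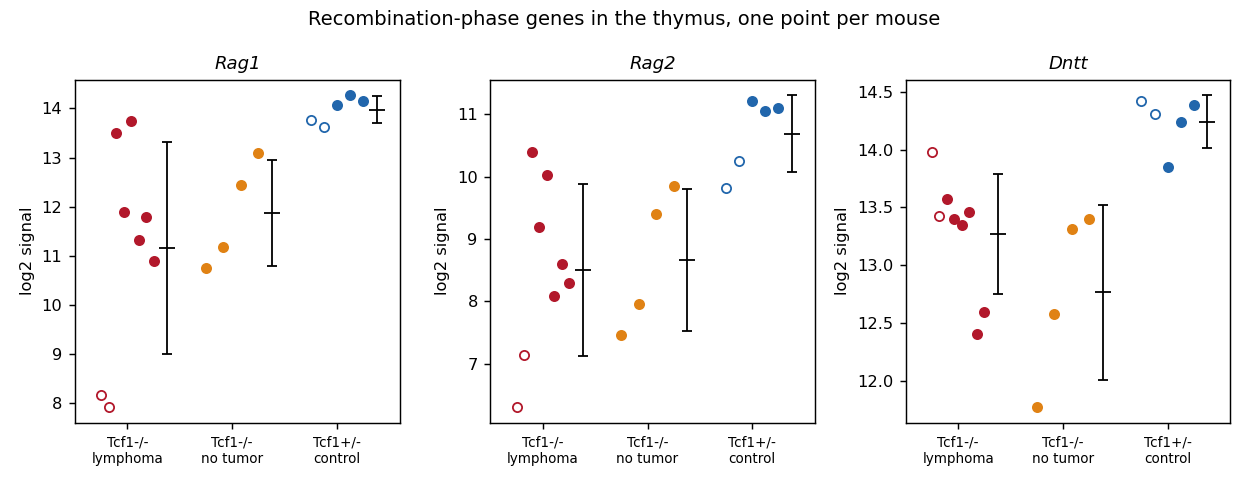
Log2 signal of Rag1, Rag2 and Dntt in each mouse (vertical axes, one scale per gene) for 8 lymphomas, 4 Tcf1-/- thymi without tumor and 5 controls. Open circles are the 4 arrays of narrow range, and bars give the mean and SD. The lymphomas span 7.92 to 13.74 for Rag1, whereas the controls span 13.63 to 14.27.

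Neither Rag gene nor Dntt was called different between lymphomas and Tcf1-/- thymi. The log2 difference was -0.72 (95% interval -2.93 to 1.49) for Rag1, -0.17 (-1.70 to 1.37) for Rag2 and 0.51 (-0.22 to 1.24) for Dntt, intervals that leave room for differences of more than 2-fold in either direction for both Rag genes. Without the 4 arrays of narrow range, which removes lymphomas 1 and 2, the Rag1 and Rag2 differences turned to 0.32 and 0.43.

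Among the 8 lymphomas, Rag1 and Rag2 varied together, and the part of RNA quality in this was not tested. Pearson's r was 0.956 (exact permutation p = 0.000794, Benjamini-Hochberg adjusted over 3 pairs of genes 0.00238) and Spearman's rho 0.929 (exact permutation p = 0.00223, adjusted 0.0067). Without lymphomas 1 and 2, the farthest from the median of Rag1, r was 0.948 (n = 6, exact permutation p = 0.0111). No such relation was found for Dntt, with r of -0.25 against Rag1 (exact permutation p = 0.57, adjusted 0.634) and rho of -0.214 (exact permutation p = 0.619, adjusted 0.619). Against Rag2, r was -0.203 (exact permutation p = 0.634, adjusted 0.634) and rho -0.286 (exact permutation p = 0.501, adjusted 0.619). Lymphomas 1 and 2 combined the lowest Rag1 with Dntt at 13.98 and 13.43, and without them r between Rag1 and Dntt was 0.529 (n = 6, exact permutation p = 0.215). Without lymphomas 1 and 3, the farthest from the median of Rag2, r between Rag2 and Dntt was 0.0135 (n = 6, exact permutation p = 0.989).

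**Figure D2:**
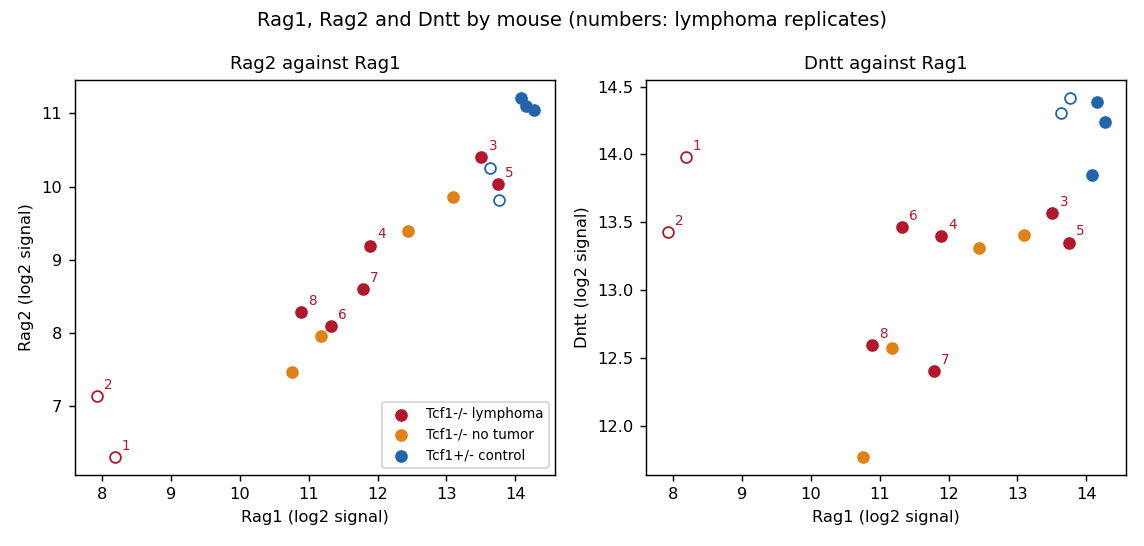
Rag2 (left) and Dntt (right) log2 signal against Rag1 log2 signal, 1 point per mouse, with lymphomas numbered by replicate and the 4 arrays of narrow range drawn open. Rag2 rises with Rag1 across the lymphomas (r = 0.956), whereas lymphomas 1 and 2 have low Rag1 and Dntt of 13.98 and 13.43.

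The genes whose pattern over the 8 lymphomas was most like that of Rag1 were Zfp871 (Pearson's r = 0.992), Rpl7 (0.988), Rad21, a cohesin subunit (0.986), Rc3h2 (0.986) and Mtpap (0.986). Over the 6 lymphomas other than 1 and 2, their r with Rag1 lay between 0.937 and 0.972. For Dntt they were Washc4 (0.938), Hsd3b3 (0.932), 4930417H01Rik (0.931), Gdap10 (0.92) and Zfp296 (0.917), with 0.896 to 0.988 over the same 6. These are the top ranks among 13755 genes over few arrays of shared quality, and are given as a description. Across the lymphomas, Rpl7 spanned only 14.12 to 14.59. Hsd3b3 (5.61 to 6.11), 4930417H01Rik (4.44 to 5.28), Gdap10 (4.46 to 6.38) and Zfp296 (5.16 to 5.72) were dim. The median of all probe sets on these arrays was 5.22 to 5.47, so the values of these dim genes may be mostly noise.

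Of the genes for the 2 Ku subunits, which bind the broken ends, Xrcc5 was called and Xrcc6 was not. Xrcc5 was higher in lymphomas, at 7.96, 8.21, 9.12, 9.03, 9.41, 9.74, 9.48 and 9.71, or a median of 9.26, against 7.58, 8.44, 7.99 and 8.63 in Tcf1-/- thymi and 7.06, 7.41, 8.34, 8.2 and 8.37 in controls. In 6 of 8 lymphomas it was above the highest control and above the highest Tcf1-/- thymus, and lymphomas 1 and 2 were the exceptions. Xrcc5 was 2.30-fold higher in lymphomas than in controls (1.2 ± 0.34 SE, limma adjusted p = 0.0309, exact permutation p = 0.0101), by 0.85 within the 4 arrays of narrow range and by 1.11 within the others. This call was lost without lymphoma 6, 7 or 8 or control 1 or 2, with adjusted p values of up to 0.0883. Against Tcf1-/- thymi the difference of 0.92 ± 0.35 (SE) had a limma adjusted p of 0.0926 (exact permutation p = 0.0444), which became 0.0324 without lymphoma 1 and 0.00508 without all 4 arrays of narrow range. Tcf1-/- thymi differed from controls by 0.28 ± 0.32 (SE, limma adjusted p = 0.667).

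Xrcc6 had a lowest value of 11.2, a median of 11.9 and a highest value of 13.55 in lymphomas, values of 9.69, 11.84, 12.48 and 12.96 in Tcf1-/- thymi, and 11.64, 11.88, 12.46, 12.27 and 12.47 in controls. The groups overlapped, and the log2 difference between lymphomas and controls was -0.07 (95% interval -0.84 to 0.70). Prkdc ranged from 7.27 to 8.40 in lymphomas, from 6.93 to 8.12 in Tcf1-/- thymi and from 6.94 to 7.61 in controls. Although 6 of 8 lymphomas exceeded the highest control, its difference of 0.46 ± 0.19 (SE) did not pass across all genes (limma adjusted p = 0.15, exact permutation p = 0.0272).

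Lig4, the ligase of the final step, was at 8.94, 9.42, 11.07, 11.48, 10.63, 10.68, 10.49 and 10.72 in lymphomas, or a median of 10.65, at 7.57, 9.37, 9.64 and 10.49 in Tcf1-/- thymi, and at 10.33, 10.21, 10.92, 11.3 and 11.17 in controls. Lymphomas and controls overlapped widely, with a difference of -0.36 (95% interval -1.17 to 0.45), while 3 of 4 Tcf1-/- thymi were below every control. The difference of -1.52 ± 0.50 (SE) between Tcf1-/- thymi and controls had a limma adjusted p of 0.0726 (exact permutation p = 0.0317), which became 0.0212 without Tcf1-/- mouse 4. That of 1.16 ± 0.53 (SE) between lymphomas and Tcf1-/- thymi had an adjusted p of 0.165 (exact permutation p = 0.0889), which became 0.0397 without the 4 arrays of narrow range. Among the 4 Tcf1-/- thymi, mouse 1 had the lowest value of every measured member except Prkdc, of which it had the highest.

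Xrcc4, the scaffold of ligase IV, ranged from 6.77 to 8.47 in lymphomas, from 7.34 to 8.21 in Tcf1-/- thymi and from 7.19 to 8.98 in controls. The 4 arrays of narrow range held its lowest values in both groups that contain them, 6.96 and 6.77 in lymphomas and 7.19 and 7.89 in controls. Over all arrays it passed no test, with differences from controls of -0.48 ± 0.34 (SE) in lymphomas and -0.55 ± 0.35 (SE) in Tcf1-/- thymi. Without those 4 arrays, both differences passed, at -0.65 ± 0.17 (SE, limma adjusted p = 0.0376) and -1.03 ± 0.21 (SE, limma adjusted p = 0.0142). The other Xrcc4 probe set gave -0.26 and -0.69 over all arrays (limma adjusted p over all probe sets 0.8 and 0.466). It was not run without the 4 arrays. Nhej1, a dim probe set in all groups, ranged from 5.43 to 6.62 in lymphomas, from 5.37 to 5.83 in Tcf1-/- thymi and from 5.38 to 6.78 in controls. It was lower in Tcf1-/- thymi than in controls by 0.71 ± 0.26 (SE) without passing the test (limma adjusted p = 0.107), which it passed without control 1 (adjusted p = 0.0107) and without the 4 arrays of narrow range (-0.96 ± 0.19 SE, adjusted p = 0.0108). The other Nhej1 probe set, also dim, gave -0.18 in this comparison over all arrays (limma adjusted p over all probe sets = 0.522).

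**Figure D3:**
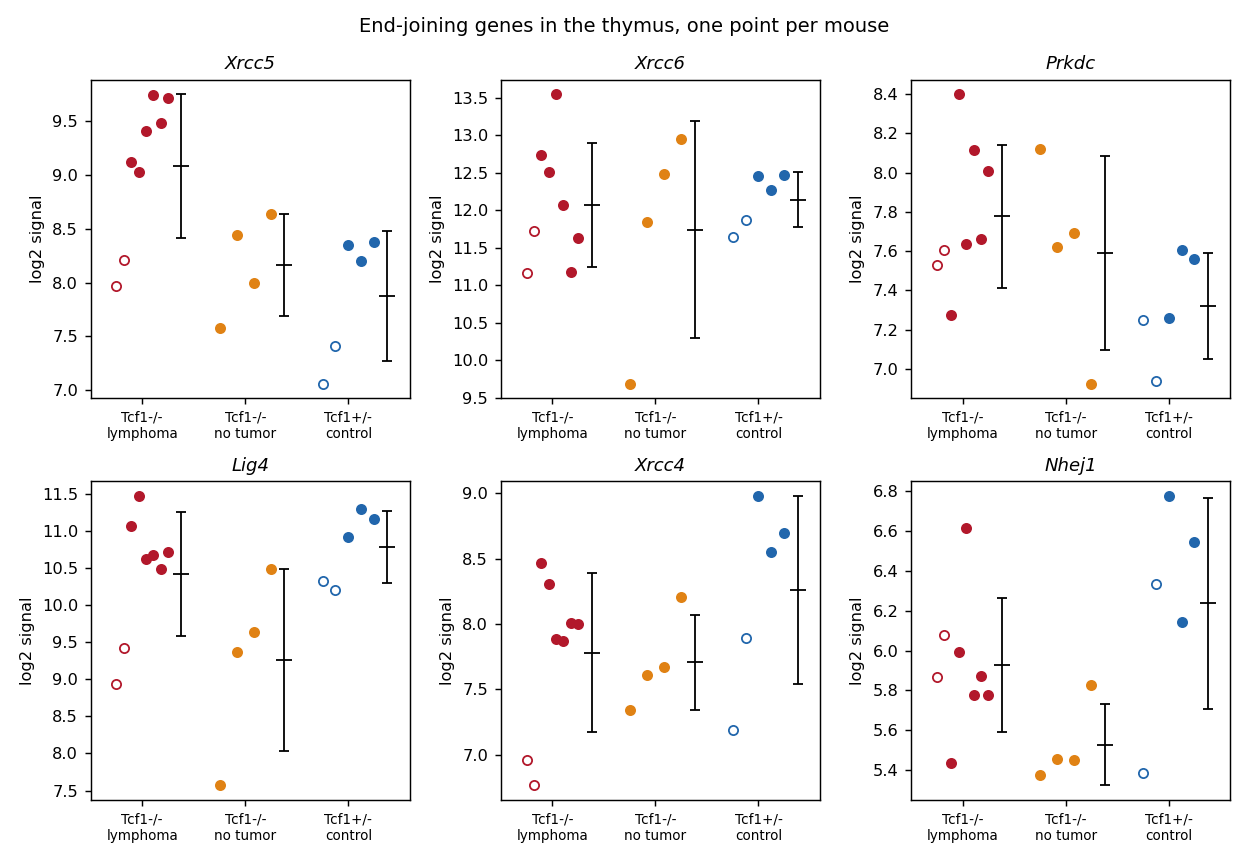
Log2 signal of 6 end-joining genes in each mouse (vertical axes, one scale per gene), with lymphomas, Tcf1-/- thymi without tumor and controls from left to right. Open circles are the 4 arrays of narrow range, and bars give the mean and SD. For Xrcc5, 6 of 8 lymphomas lie above the highest control, whereas the groups overlap for Xrcc6.

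Counted over the 9 measured members, 3 were called lower and 1 was called higher in lymphomas than in controls. Of all 13755 genes tested, 4.21% were called lower and 8.51% higher in that comparison, and the median log2 difference was -0.36 over the members and 0.06 over all genes. In Tcf1-/- thymi, 3 of 9 members were called lower and none was called higher than in controls (unadjusted limma p under 0.05 for 5 members). Of all genes, 4.7% were called lower and 10.1% higher there, with medians of -0.71 over the members and -0.01 over all genes. Between lymphomas and Tcf1-/- thymi none of the 9 was called by limma, 2 had an unadjusted p under 0.05, and 6.34% of all genes were called higher and 8.35% lower. An exact Mann-Whitney U test with the same adjustment called Rag1 and Dntt for lymphomas against controls, where it called 1217 of the 13755 genes. This test called no member for Tcf1-/- thymi against controls, where it called 0 of the 13755 genes. With 4 mice against 5, its smallest possible p passes this adjustment only if a large share of all genes reach it. The 0 therefore decides nothing about single members.

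**Figure D4:**
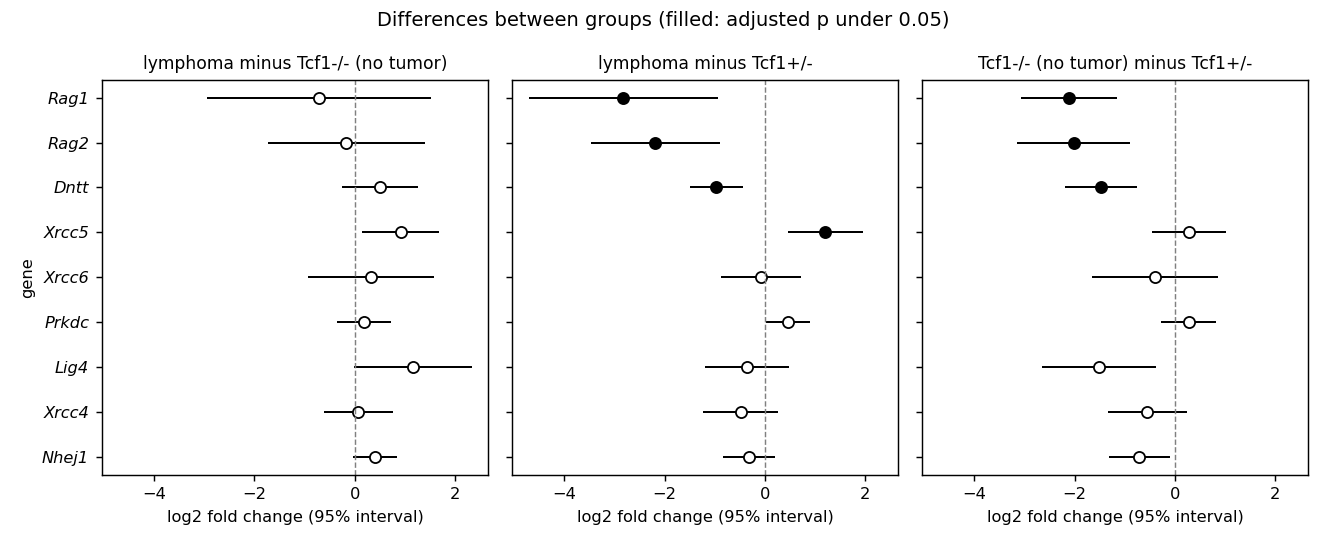
Log2 fold changes of the 9 measured genes with 95% intervals from limma in the 3 comparisons, filled where the adjusted p is under 0.05. Rag1, Rag2 and Dntt lie left of 0 against controls in both Tcf1-/- groups, and Xrcc5 lies right of 0 in lymphomas.

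Genes that mark thymocyte stages moved in the same comparisons. Of 11 DP-stage genes, 9 were lower in lymphomas and 10 in Tcf1-/- thymi than in controls. With the log2 difference in lymphomas before that in Tcf1-/- thymi, these included the coreceptor genes Cd4 (-3.31 and -2.60), Cd8b1 (-3.23 and -2.42) and Cd8a (-2.89 and -1.96) and the water channel gene Aqp11 (-2.52 and -1.67). The log2 of their summed signal was 12.39 to 14.49 in lymphomas, 13.18 to 14.01 in Tcf1-/- thymi and 15.28 to 15.75 in controls, so that controls stood apart from both other groups. Of 8 DN3-stage genes, 4 were called higher in lymphomas than in controls, namely Dtx1 (3.82), Il2ra, the CD25 gene (2.58), Hes1 (2.31) and Notch3 (1.87). Ptcra (1.38), Spib (0.58), Cd3e (0.01) and Erg (-0.12) were not called. The paper describes Hes1 and Deltex1 (Dtx1) as Notch1 target genes and reports Notch1 mutations in nearly all of a panel of lymphomas. Stage and Notch1 signaling were not tested apart here. In Tcf1-/- thymi, 5 of the 8 were called higher and 1 lower than in controls. Spib, on the same list and also known from B cells, was higher in Tcf1-/- thymi than in controls by 3.35 and lower in lymphomas than in Tcf1-/- thymi (-2.76). Of 9 thymocyte markers at large, 4 were lower in lymphomas and 6 in Tcf1-/- thymi than in controls. The lists were chosen with earlier results of these data known. In such bulk RNA, fewer cells of a stage and less RNA per cell cannot be told apart.

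Markers of other cells moved with the Tcf1-/- comparison as well. All 12 macrophage markers and 8 of 9 B-cell markers were higher in Tcf1-/- thymi than in controls, as were 6 of 7 natural killer cell, 6 of 8 dendritic cell, 4 of 8 fibroblast and 4 of 7 B-cell precursor markers. The B-cell precursor gene Vpreb1, a surrogate light chain, was lower (-1.42), and none of 10 thymic epithelial markers was called by limma (4 with an unadjusted p under 0.05). In Tcf1-/- mice 1, 2, 3 and 4, the summed macrophage signal was 15.68, 14.91, 14.48 and 13.63 and the summed B-cell signal 15.05, 13.70, 13.54 and 12.93, and in controls they were 11.3 to 12.4 and 9.83 to 10.5. The mouse with the highest macrophage and B-cell sums had the lowest Rag1 and Dntt of its group, and the mouse with the lowest sums had the highest. That last mouse, number 4, also had the lowest DP-stage sum of its group (13.18) and the highest thymic epithelial sum (12.21). Mouse 1 also had the lowest sum of replication and cycling genes, 14.585 against 15.96 to 16.15 in the others. In lymphomas none of the 12 macrophage markers was called against controls by limma (0 with an unadjusted p under 0.05) and the B-cell sum was 9.71 to 10.9, with 1 of 9 B-cell markers called higher. In the same comparison 4 of 8 dendritic cell, 4 of 7 natural killer cell, 2 of 10 thymic epithelial and 1 of 7 B-cell precursor markers were lower, and 1 natural killer cell marker was higher. Of 8 fibroblast markers, Pdgfrb (5.80) and Fbln1 (2.56) were higher in lymphomas than in controls and the other 6, among them Col1a1, Col1a2 and Dcn, were not called. The part of these cells in the differences of the recombination genes was not tested.

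**Figure D5:**
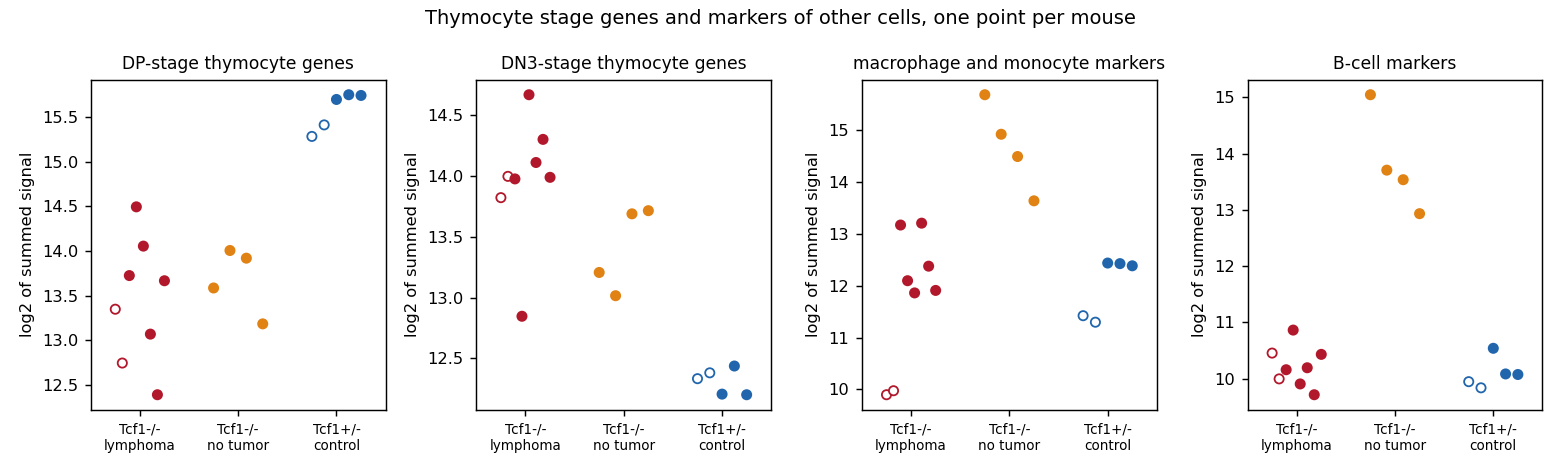
Log2 of the summed signal of DP-stage genes, DN3-stage genes, macrophage markers and B-cell markers in each mouse (vertical axes, one scale per list), with the 4 arrays of narrow range drawn open. Controls have the highest DP-stage sums (15.28 to 15.75), and Tcf1-/- thymi without tumor the highest macrophage and B-cell sums.

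Of 15 regulators of Rag transcription tested, 4 were lower and none higher in lymphomas than in controls (unadjusted p under 0.05 for 5), where 4.21% of all genes were called lower. The median log2 difference was 0.09 over the list and 0.06 over all genes. The 4 were Satb1, a chromatin organizer (-1.44), Bach2, a repressor of the BACH family (-1.32), Bcl11b, a T-lineage factor (-0.67), and Ets1 (-0.53), with limma adjusted p values of up to 0.0224. In Tcf1-/- thymi, Satb1 (-2.01) and Bcl11b (-0.97) were lower and Ikzf3, which encodes Aiolos (0.79), was higher than in controls, where 4.7% of all genes were called lower and 10.1% higher. Bach2 was also lower in lymphomas than in Tcf1-/- thymi, by 2.56, the only call among the 15 between these groups. Of 7 cofactors and turnover factors of the Rag proteins, only Ddb1, an adaptor of ubiquitin ligases, was called, higher in lymphomas than in controls (0.71 ± 0.17 SE, limma adjusted p = 0.0153).

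Genes acting around the same breaks are given by list, beside 12.7% of all genes tested that were called in either direction in lymphomas against controls, 14.8% in Tcf1-/- thymi against controls and 14.7% in lymphomas against Tcf1-/- thymi. Of 7 accessory factors of end joining, none was called by limma in lymphomas against either other group (unadjusted p under 0.05 for 2 against Tcf1-/- thymi and for 1 against controls). In Tcf1-/- thymi, Setmar (-0.79) and Aplf, which binds Ku and Xrcc4 (-0.55), were lower and Poll, a gap-filling polymerase (0.74), was higher than in controls. Among 12 break signaling factors, Nbn of the Mre11 complex was higher in lymphomas than in controls (0.88), and Atm, the kinase that responds to breaks, was higher in Tcf1-/- thymi than in controls (1.11) and lower in lymphomas than in Tcf1-/- thymi (-0.90). Of 7 factors of alternative end joining, Parp1 (0.99) and the ligase gene Lig1 (0.75) were higher in lymphomas than in controls. Lig1 also serves DNA replication. Of 14 replication and cycling genes, Mcm3 (0.72) and Mcm6 (0.65), subunits of the replicative helicase, were called higher in lymphomas than in controls. The other 12 were not called, and the median log2 difference of the list was 0.29. The log2 of their summed signal had a median of 15.93 in lymphomas and 16.12 in controls.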

How the data were processed

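RNA of 17 thymi was hybridized to Affymetrix GeneChip mouse genome arrays. The deposited values are log2 signals that the authors obtained by RMA. This method corrects background, equalizes the distributions of arrays handled together and summarizes probes, so that shifts common to most genes can be lost. The deposited arrays still differed, with medians of 5.22 to 5.47 and interquartile ranges of 2.92 to 3.75. Whether all 17 arrays were processed together is not given in the sources used here. Of 45101 probe sets, 64 controls, 932 with several gene symbols and 9160 with none were left out, and the brightest of the remaining 34945 was taken for each gene. A gene was kept if its signal exceeded the 40th percentile of its array on 4 or more arrays. The 13755 genes kept were tested with limma 3.58.1 in R 4.3.3, fitting the 2 groups of each comparison alone, and called at a Benjamini-Hochberg adjusted p under 0.05. Counts of genes higher or lower in a list are counts of called genes. Group means of members were also compared by exact permutation (two-sided). The number of arrays limits the precision, and nothing says whether litters were shared.

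The members and lists were chosen with earlier results of these data known. Besides the 10 members, the text names up to 4 genes with the largest called changes per list, and the 5 genes most correlated with Rag1 and with Dntt, and other list genes were named after their values were seen. Some genes are not reported here. Mice of lymphomas and controls share the numbers 1 to 5. Same-numbered arrays deviated together from their group means in 5 of 5 pairs (r = 0.246 to 0.625), so the block is given where it changes a call. The same-numbered control was the closest match in only 2 of the 5. Numbers 1 and 2 of both groups are the 4 arrays of narrow range, whose shared shift can by itself raise these r values. The numbers therefore need not mark pairs of mice. Between the other groups r was -0.286 to 0.12. Alternatives covered each mouse left out, filters, probe set choice, normalization, weights, tests and the 4 arrays of narrow range.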

Additional observations from a re-analysis of the deposited data

How the results depend on the processing

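Of the 7 calls among the members, all kept their direction in every alternative run, although runs that change only the filter, variance model or test could not change it. Against controls in lymphomas, Rag1 lost its call in 17 of 29 alternatives, Xrcc5 in 7, Rag2 in 5 and Dntt in 3, and in Tcf1-/- thymi Rag2 lost it in 7 of 25, Rag1 in 2 and Dntt in 1, and the cause was not tested. For each of these genes in Tcf1-/- thymi, the losses include the Mann-Whitney U test, which could hardly call any gene there.

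Between lymphomas and controls, 4 members were called, 0 in the same 5 pairs of mice without the block (fewer mice, and this alternative and its counterparts were added after seeing the data), 8 with array weights, 2 by the Mann-Whitney U test and 2 to 4 when 1 mouse was left out. Over all 13755 genes the calls were 1749, and in these alternatives 686, 6134, 1217 and 1177 to 1951, in the same order. Between Tcf1-/- thymi and controls, 3 were called, 1 in the fit of all 17 arrays, 6 with array weights, 0 by the Mann-Whitney U test, 5 without the 4 arrays of narrow range, 6 with the array set as a block and 2 to 4 when 1 mouse was left out. Over all 13755 genes the calls were 2037, and in these alternatives 1514, 5611, 0, 3040, 3418 and 1394 to 2042, in the same order. Between lymphomas and Tcf1-/- thymi, 0 were called, 1 after quantile normalization and relative to Abl1, 2 with array weights, without the 4 arrays and with the array set as a block, and 0 to 1 when 1 mouse was left out. Over all genes the calls were 2020, and in these alternatives 2185, 1307, 4501, 2448, 2722 and 1014 to 2203, in the same order. With the replicate block, 3 members were called in lymphomas against controls, Rag1 alone losing its call, 4 in Tcf1-/- thymi against controls and 0 between lymphomas and Tcf1-/- thymi. All pairings rest on a shared number only, and in both of those with Tcf1-/- thymi r was -0.286 to 0.12.

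The correlation of Dntt among lymphomas changed sign with Rag1 (-0.402 to 0.0833 with 1 lymphoma left out, 0.529 without the 4 arrays, 0.377 for the mean of probe sets) and with Rag2 (-0.408 to 0.239, 0.537 and 0.393). 

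No Tcf1-/- thymus without tumor is among the 4 arrays. In comparisons with these thymi, leaving the 4 out and the array-set block therefore give the same difference by construction. Differences of members that were not called changed sign as follows. Between lymphomas and Tcf1-/- thymi, Rag1 and Rag2 gave 0.32 and 0.43 without the 4 arrays and with the array set as a block, Xrcc4 -0.084 with the replicate block and in the same mice without it, and Xrcc6 -0.11 with array weights. With 1 mouse left out, Rag2 lay between -0.57 and 0.23, Prkdc between -0.032 and 0.37, Xrcc4 between -0.047 and 0.24 and Xrcc6 between -0.36 and 0.73. Between lymphomas and controls, Xrcc6 gave 0.20 with the replicate block and in the same mice without it, and -0.28 to 0.058 with 1 mouse left out, and Nhej1 0.10 for its second probe set. Between Tcf1-/- thymi and controls, Xrcc5 gave -0.091 with array weights and -0.14 without the 4 arrays and with the array set as a block, and Xrcc6 -0.80 to 0.29 with 1 mouse left out.

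Over all genes, the 2020 calls between lymphomas and Tcf1-/- thymi became 1014 without Tcf1-/- mouse 1, 1271 without Tcf1-/- mouse 2, 584 with the replicate block, 951 in the same mice without it, 1307 relative to Abl1, 4501 with array weights, 1220 with a log2 difference of at least 1 and 387 after adjustment for the signal of Y-linked genes. The 1749 between lymphomas and controls became 686 in the 5 pairs without the block, 1039 relative to Abl1, 6134 with array weights, 854 with a difference of at least 1 and 3753 with the array set as a block. The 2037 between Tcf1-/- thymi and controls became 1257 with the replicate block, 5611 with array weights, 0 by the Mann-Whitney U test, 1327 with a difference of at least 1 and 3418 with the array set as a block.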
